A study of Mus musculus with 12 samples.

Results

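Libraries labelled as CD8 T cells from mouse brain 3 days after stroke were set against libraries labelled as CD8 T cells from the blood of naive mice. The comparison takes 6 of the series' 12 libraries, 3 of each group, and the 21341 of 23937 genes in the deposited table that reached 1 CPM (counts per-million of a library size the authors scaled) in at least 3 of these 6. The groups differ in tissue and in stroke at once, so the share of each in a difference cannot be told apart here. All 4 groups of the series carry the same CD8 T cell label. The other groups, naive brain and brain 30 days after stroke, entered the estimate of the spread, and their levels are given beside some genes without a test. The sources used here give no strain, age or sex of the mice and no way the stroke was made. The protocol text names spleens as the starting tissue of the sort, while every sample label names brain or blood, and the groups follow the labels. No label says whether the 3 samples of a group are separate mice. The p-values therefore measure how far these samples spread, which may be technical.

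CD8 T cells circulate in blood largely as resting cells that keep a naive or memory program, with transcription factors such as LEF1, TCF1 and SATB1 holding that state. After an ischemic injury the brain's microglia engulf debris, and monocytes, dendritic cells and T cells enter from the blood. Phagocytes present peptides to T cells on MHC class I and, to CD4 T cells, on MHC class II, whose genes T cells of the mouse scarcely use. A sort for CD8 T cells is meant to leave those other cells behind.

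The blood libraries held 1104490 to 2141262 reads and the day 3 libraries 5094462, 1157538 and 1267597 reads in replicates 1 to 3. A library's limit at 3 reads, which is what a count of 0 allows, lay between 0.951 and 1.65 CPM. The kit adds no molecular identifiers, so this limit covers counting error only. Day 3 replicate 1 stood apart. It lay at 227 on the first principal component of the 6 libraries (37.6% of the variance), with the others between -87.1 and -4.2. The 1484 genes of chemosensory receptors (smell, pheromone and taste), which have no known use in T cells, came to 252.4 CPM before scaling in it, to 7813.1 and 4641.1 in day 3 replicates 2 and 3, and to 3274.7 to 5390.7 in blood. Day 3 replicate 1 also had the highest of the 3 day 3 values in 221 of the 245 genes called higher at day 3. After the authors' scaling its CPM values add up to 1614887.8, against 526580.2 and 678818.2 in day 3 replicates 2 and 3. The scaling thus raises its CPM beside theirs in every gene. Results are therefore given with and without day 3 replicate 1. Blood replicate 1 lay apart on the second component (26% of the variance), at 185 with the others between -72.6 and 2.3, and 179 genes passed without it. In this bulk RNA, fewer cells of a type and less RNA per cell cannot be told apart.

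The labelled cell type was checked by its defining genes. Cd8a, which encodes the alpha chain of CD8, measured 172, 216 and 237 CPM in blood and 510, 52.8 and 197 CPM at day 3. Cd3e, which encodes a signalling chain of CD3, measured 60.0, 28.0 and 233 CPM in blood and 429, 44.1 and 27.8 CPM at day 3. Both were found in every library, with overlapping groups and day 3 replicate 2 lowest for Cd8a. Naive brain had 797, 1571 and 1358 CPM of Cd8a and 746, 1784 and 1544 CPM of Cd3e. The log2 difference of Cd8a was -0.24 ± 0.71 (SE) and that of Cd3e 0.15 ± 0.81, with limma adjusted p of 0.982 and 0.993, and the sign of each depended on the processing. Cd8b1 and Ptprc (CD45, carried by all leukocytes) differed by -0.98 ± 0.72 and -0.97 ± 0.65 (limma adjusted p = 0.876 and 0.831). Cd4, which marks helper T cells, was low, at 3.24 to 6.03 CPM in blood and 8.57 to 26.8 CPM at day 3, and its log2 difference of 1.52 ± 1.11 did not pass the test (limma adjusted p = 0.875).

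Most genes that passed the test were higher at day 3. Of the 21341 genes, 264 (1.24%) passed limma's test at a Benjamini-Hochberg adjusted p below 0.05 on log2(CPM + 1), and 1767 had an unadjusted p below 0.05. Of the 264, 245 (1.15% of those tested) were higher at day 3 and 19 (0.0890%) lower. The counts of called genes in each list below stand beside these shares. The higher genes had a median log2 difference of 4.13 (2.53 to 8.80) and the lower ones of -3.11 (-2.42 to -4.40), against 0.01 over all tested genes. The 3 day 3 libraries lay above the 3 blood libraries in 1580 genes (7.40%) and below them in 1007 (4.72%), among them 238 of the 245 and 18 of the 19. An exact permutation test of 3 against 3 libraries cannot go below p = 0.1, so limma's shared estimate of the spread carries the calls.

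When day 3 replicate 1 was left out, the 264 genes all kept their sign, but 142 genes passed, 91 higher and 51 lower, of which 91 and 17 were among the 245 and 19. The 19 lower calls rested more on other libraries, with 5 still called without blood replicate 1, 14 without blood replicate 2 and 7 without blood replicate 3, and 6 and 7 without day 3 replicates 2 and 3. Of the 245 higher calls, 156 to 220 were still called in these 5 fits. Of the whole comparison, 92.8% of the calls were higher, against 64.1% without that library. In the libraries with many reads on chemosensory receptors (high background) the split was 96 higher and 63 lower. Of the 6 compared libraries, that fit also leaves out day 3 replicate 1 alone. Its log2 differences are thus those of the fit without day 3 replicate 1, and it is no separate check. Only the estimate of the spread differs, which besides these libraries takes day 30 replicates 2 and 3. No value can be had within the other class, which holds 1 of these 6 libraries. The balance also moved with the scaling, to 458 higher and 159 lower after quantile normalization (74.2% higher), 437 and 133 in CPM without the authors' scaling (76.7%) and 117 and 2 after median centring. Some genes named below overlap another gene in position, namely Cox6a2 (Itgad), Ctsb (Fdft1), Ctsz (Nelfcd), Grn (Fam171a2), P2ry12 (Med12l), Cxcl10 (Art3), Bhlhe40 (0610040F04Rik), Litaf (Snn), Cx3cr1 (Csrnp1 among others), Il1r2 (Gm16894), and Sh2d1a (Tenm1). The sources used here give no strand setting for the counting, so the reads of such pairs cannot be told apart. In the lists described below as having none that fell, neither edgeR nor DESeq2 called a member lower, except 1 matrix gene by edgeR, and at an unadjusted p below 0.05 limma had 1 member lower in the matrix list and 1 in the chemokine receptor list.

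**Figure D1:**
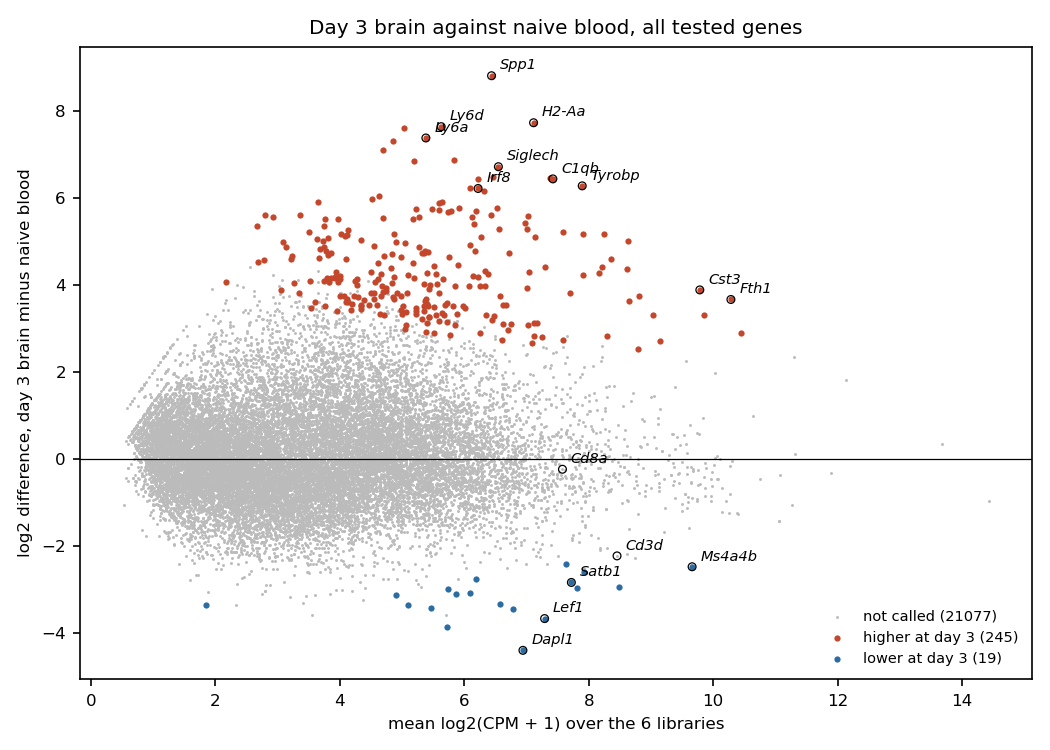
The log2 difference between day 3 brain and naive blood (vertical axis) is plotted against the mean log2(CPM + 1) of the 6 libraries (horizontal axis) for all tested genes, with the 245 genes called higher in red, the 19 called lower in blue and the rest in grey. The called genes spread from Spp1 at 8.80 to Dapl1 at -4.40, while Cd8a lies near 0.

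Some of the largest differences were those of MHC class II, the molecules that show peptides from engulfed material to CD4 T cells. H2-Aa encodes the alpha chain of the I-A molecule and H2-Ab1 its beta chain, while H2-Eb1 encodes the beta chain of I-E. Class II genes are known to share promoter boxes. The bases before the start of H2-Aa and H2-Eb1 are shown because they held the letters of such a box. Each stretch is 250 bases, from RefSeq (GRCm38.p6), read 5′ to 3′ on the gene's strand. The capitals mark the Y box letters CTGATTGG.
H2-Aa, chr17:34287824-34288073, minus strand: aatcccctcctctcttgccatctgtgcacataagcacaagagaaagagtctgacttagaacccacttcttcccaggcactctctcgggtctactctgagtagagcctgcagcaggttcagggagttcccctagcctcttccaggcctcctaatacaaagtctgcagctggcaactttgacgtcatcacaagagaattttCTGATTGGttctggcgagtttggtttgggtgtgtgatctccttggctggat
H2-Eb1, chr17:34305617-34305866, plus strand: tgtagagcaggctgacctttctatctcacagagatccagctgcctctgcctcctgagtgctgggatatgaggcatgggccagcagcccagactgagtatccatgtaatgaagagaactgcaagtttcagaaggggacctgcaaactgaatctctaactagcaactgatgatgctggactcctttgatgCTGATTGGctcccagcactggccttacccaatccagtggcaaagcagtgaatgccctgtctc
The box began 51 bases before the start of H2-Aa and 62 bases before that of H2-Eb1. Of 6 listed H2 genes, H2-Aa, H2-Ab1, H2-Eb1, H2-DMa, H2-DMb1 and H2-DMb2, 5 had a RefSeq promoter and 2 of these held the letters. H2-Ab1 was the gene without one and was not searched. H2-DMa also rose (3.09 ± 0.84, limma adjusted p = 0.0429), and its promoters did not hold the letters. The search covered both strands from 250 bases before to 50 after the start, and 1346 of 32851 promoters (4.10%) held them. A match is a run of letters and not a measured binding site.

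H2-Aa (chr17:34282744-34287823, minus strand, protein-coding) measured 5.95, 2.19 and 38.0 CPM in blood and 9408, 676 and 1282 CPM at day 3. H2-Ab1 measured 16.8, 12.1 and 23.6 CPM in blood and 9191, 715 and 562 CPM at day 3, and H2-Eb1 3.24, 8.23 and 20.1 against 4516, 434 and 295 CPM. For all 3 chains every day 3 library lay far above every blood library, and day 3 replicate 1 was several times above the others. The log2 differences were 7.72 ± 0.84 for H2-Aa, 6.44 ± 0.77 for H2-Ab1 and 6.48 ± 0.84 for H2-Eb1, with limma adjusted p from 2.63e-09 to 2.00e-07. With that library left out they were 6.61, 5.15 and 5.26 and still passed (limma adjusted p from 0.00011 to 0.00104). Cd74, the invariant chain that guards the peptide groove of class II, rose to 13624, 701 and 1196 CPM from 129, 36.2 and 70.0 CPM, by 5.01 ± 0.74 (limma adjusted p = 4.94e-06). In naive brain H2-Aa measured 818, 1189 and 974 CPM and H2-Ab1 707, 1834 and 1923 CPM, so these chains were also found in brain libraries without stroke.

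In the list of dendritic cell and MHC class II markers 9 of 17 rose and none fell, with a median of 3.39 against 0.01 over all genes. These genes took 0.0311% to 0.0566% of the reads in blood and 2.58%, 0.787% and 0.819% at day 3. Besides the class II chains, the lectin gene Cd209a and the integrin gene Itgax (CD11c) rose by 5.51 ± 1.06 and 3.30, while Flt3, the receptor for the dendritic cell growth factor, differed by 3.28 without passing. Xcr1 and Zbtb46, markers of conventional dendritic cells, differed by 0.74 and 1.06 and did not pass. None of the 17 was at 0 in all day 3 libraries. Without day 3 replicate 1 the list kept 6 calls and a median of 3.10. This list marks cells other than CD8 T cells, and its part in the other differences was not tested.

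**Figure D2:**
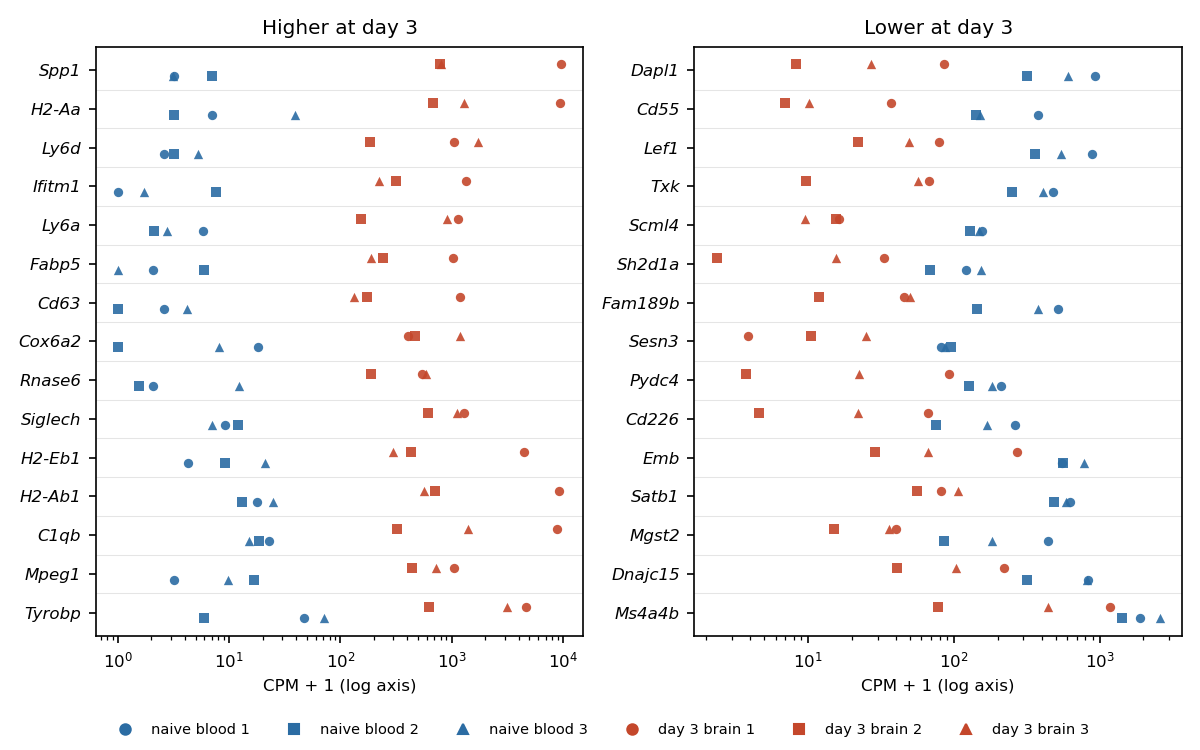
CPM + 1 (log axis) is shown in each of the 6 libraries for the 15 genes with the largest difference in each direction, with blood in blue, day 3 in red and the replicate given by the marker shape. The rule of choice puts every red marker above the blue ones of its gene on the left and below them on the right, and on the right day 3 replicate 1 is often nearest to blood.

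A second set of strongly higher genes belongs to the plasmacytoid dendritic cell, the blood-borne cell that makes type I interferon in bulk. Its 22 listed genes were chosen after the values were seen and are given as a description. Siglech, a surface lectin of this cell and of microglia, measured 8.11, 11 and 5.98 CPM in blood and 1282, 608 and 1127 CPM at day 3. Ly6d, a surface protein of lymphoid and plasmacytoid precursors, measured 1.62, 2.19 and 4.22 CPM against 1061, 184 and 1717 CPM, and the transcription factor gene Irf8 7.03, 22.5 and 2.46 against 751, 538 and 654 CPM. In all 3 genes the groups were far apart, and day 3 replicate 1 was at most a little above replicate 3. Siglech differed by 6.71 ± 0.68, Ly6d by 7.63 ± 0.98 and Irf8 by 6.21 ± 0.75 (limma adjusted p from 6.25e-10 to 1.97e-07), and without day 3 replicate 1 by 6.50, 7.32 and 6.10.

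The next genes were picked from the members of this list that passed. Bcl11a, a transcription factor gene of this lineage, measured 2.16, 1.65 and 5.63 CPM in blood and 130, 184 and 229 CPM at day 3 (5.54 ± 0.97, limma adjusted p = 0.000133). Tcf4, which encodes its master regulator E2-2, measured 8.65, 19.2 and 29.2 CPM against 227, 362 and 552 CPM (4.31 ± 0.76, limma adjusted p = 0.000162). Klk1, a kallikrein gene, measured at most 1.10 CPM in blood and 28.2, 74.2 and 168 CPM at day 3. In these 3 genes day 3 replicate 3 was the highest and replicate 1 the lowest. Cox6a2, a subunit of the respiratory chain, rose by 6.86 ± 0.85 from 17.3, 0 and 7.04 to 408, 471 and 1192 CPM. Itgad, which it overlaps, measured 23.1 to 63.2 CPM at day 3. Rnase6, an antimicrobial ribonuclease gene, rose by 6.84 ± 0.90. Mzb1, a chaperone of antibody-secreting and plasmacytoid cells, had 0 reads in each blood library, whose limits were 1.62, 1.65 and 1.06 CPM, and measured 52.3, 19.6 and 60.5 CPM at day 3.

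Of the 22 genes 17 were called higher and none lower, with a median of 4.93, and 14 were called without day 3 replicate 1 with a median of 4.79. They took 0.0290% to 0.0580% of the reads in blood and 0.442%, 0.834% and 1.29% at day 3. Day 3 replicate 1 thus had the smallest share of the 3 here and the largest for the MHC class II list. Among the 17, replicate 3 was the highest day 3 library in 11 and replicate 1 in 6, whereas for the called microglia, lysosome, complement and phagocyte genes below replicate 1 was the highest in every case. In naive brain the listed genes took 0.291% to 0.454% of the reads. The listed genes that did not pass were Irf7, Tlr7, Tlr9, Pacsin1 and Ptprs. They differed by 2.06, 2.73, 1.56, 2.35 and 1.07 (limma adjusted p from 0.297 to 0.881).

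**Figure D3:**
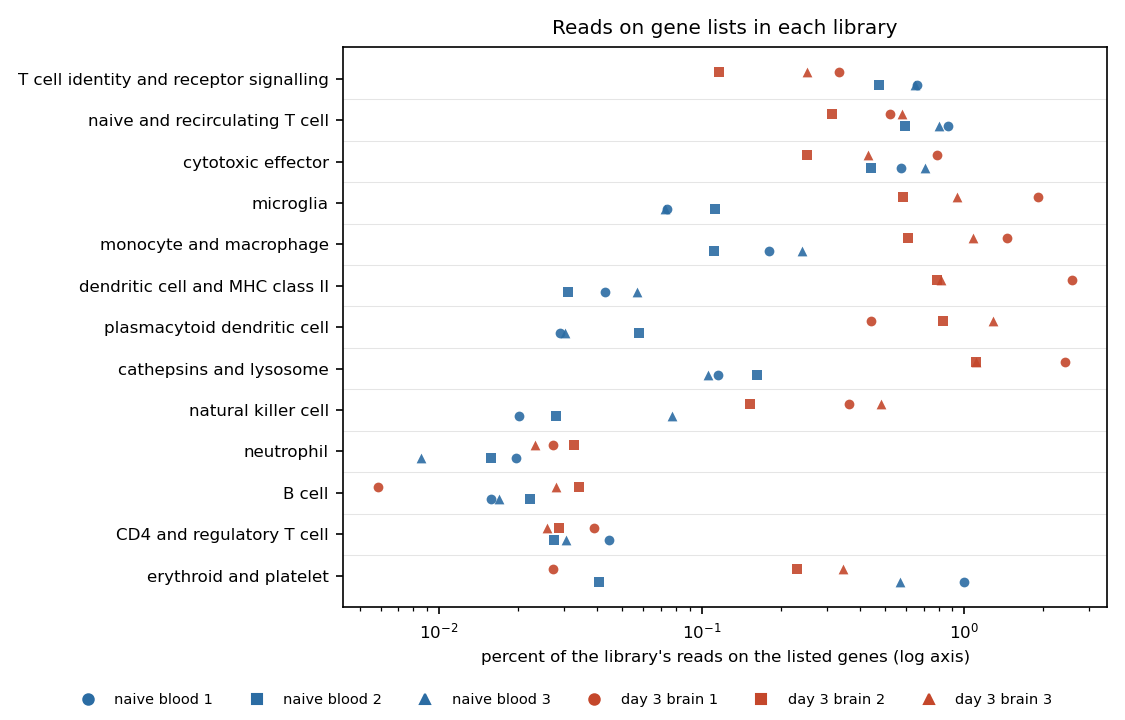
The percent of each library's reads that fell on the genes of 13 lists is shown on a log axis, with blood in blue, day 3 in red and the replicate given by the marker shape. The microglia, monocyte and macrophage, dendritic cell, plasmacytoid, lysosome, natural killer and neutrophil lists are higher at day 3 without overlap. The natural killer list includes Tyrobp, which myeloid cells share. Tyrobp had 14828, 1366 and 5835 reads at day 3 and 85, 9 and 200 in blood. Of the 12 natural killer genes 7 differed upward and 5 downward. The T cell identity and the naive T cell lists are lower without overlap. The cytotoxic, B cell, CD4 and erythroid lists overlap between the groups.

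Phagocyte genes that handle lipid and debris rose strongly. Spp1 (chr5:104435118-104441050, plus strand, protein-coding) encodes osteopontin, a secreted phosphoprotein of activated macrophages, and had the largest difference of the 264 called genes. It measured 2.16, 6.03 and 2.11 CPM in blood and 9672, 788 and 807 CPM at day 3. Behind these stood 21 reads in blood and 33753 at day 3, of which 30513 came from replicate 1. The difference was 8.80 ± 0.95 (limma adjusted p = 2.63e-09) and 7.60 without day 3 replicate 1 (limma adjusted p = 0.000151). In naive brain Spp1 measured 5.04, 0.646 and 12.6 CPM and at day 30 15.9, 209 and 57.4 CPM, so of the 4 groups the high values were those of day 3.

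Fabp5, a fatty acid binding protein, measured 1.08, 4.94 and 0 CPM in blood and 1033, 243 and 189 CPM at day 3 (7.29 ± 0.91, limma adjusted p = 7.68e-08). Cd63, a tetraspanin of late endosomes, measured 1.62, 0 and 3.17 CPM against 1196, 172 and 132 CPM (7.09 ± 0.91, limma adjusted p = 1.97e-07). Apoc2, an apolipoprotein that activates lipoprotein lipase, measured at most 8.23 CPM in blood and 1068, 34.1 and 156 CPM at day 3. The groups did not overlap for these genes, and replicate 1 was the highest day 3 library in each. Apoe, the main lipid carrier of the brain, rose by 4.40 ± 0.80 from 36.8, 215 and 32.0 to 9113, 783 and 353 CPM (limma adjusted p = 0.000238). With replicate 1 left out Apoe differed by 3.03 and no longer passed (limma adjusted p = 0.0527). Lgals3, which encodes the sugar-binding protein galectin-3, rose by 5.40 ± 0.92. Of 24 genes in the disease-associated phagocyte and lipid list 11 rose and none fell (median 3.16), and 6 were called without that library.

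Lysosomal proteases formed the list with the highest median among those drawn up by function. Ctsh and Ctsz encode cathepsins, the acid proteases that cut up engulfed protein. Ctsh measured 4.33, 10.4 and 13 CPM in blood and 1562, 377 and 518 CPM at day 3 (6.15 ± 0.73, limma adjusted p = 2.90e-08), and Ctsz 4.87, 6.03 and 10.9 against 2284, 328 and 270 CPM (6.22 ± 0.77, limma adjusted p = 7.71e-08). The groups did not overlap for Ctsh or Ctsz. Grn, which encodes the lysosomal growth factor progranulin, and Ctsb rose by 5.42 ± 0.72 and 5.17 ± 0.76, and Ctsd, the aspartic protease of lysosomes, by 4.36 ± 0.78. Of 20 lysosome genes 12 rose and none fell (median 4.06), and 11 were called without day 3 replicate 1 (median 3.07). The list took 0.106% to 0.162% of the reads in blood and 2.42%, 1.11% and 1.11% at day 3.

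Complement and Fc receptor genes, through which phagocytes bind tagged debris and antibody, rose as well. C1qb, a chain of the first complement component, measured 21.6, 17.6 and 14.1 CPM in blood and 8898, 321 and 1411 CPM at day 3. C1qa and C1qc, its partner chains, measured at most 14.3 and 29.6 CPM in blood and at least 69.1 and 344 CPM at day 3. C1qb differed by 6.43 ± 0.75, C1qa by 5.51 ± 0.88 and C1qc by 5.28 ± 0.75 (limma adjusted p from 2.37e-08 to 2.21e-05), and each still passed without day 3 replicate 1. In naive brain C1qb measured 4859, 3989 and 12572 CPM, within or above the range of day 3. Tyrobp and Fcer1g, adaptor chains that carry the signals of myeloid and natural killer receptors, rose by 6.27 ± 0.74 and 5.16 ± 0.69. Of 20 Fc receptor and complement genes 9 rose and none fell (median 3.07), and 4 were called without day 3 replicate 1.

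Markers of microglia, the macrophages native to brain tissue, moved with these groups. Of 18 listed genes 12 rose and none fell (median 3.97), and 15 had all 3 day 3 libraries above blood. Over all tested genes 1.15% were called higher and 7.40% had all 3 day 3 libraries above blood. They took 0.0726% to 0.113% of the reads in blood and 1.91%, 0.585% and 0.942% at day 3, against 2.07% to 4.65% in naive brain. P2ry12, the nucleotide receptor that marks resting microglia, measured 8.65, 3.84 and 4.58 CPM in blood and 680, 25.0 and 221 CPM at day 3 (4.63 ± 0.82, limma adjusted p = 0.000192). Trem2, a lipid receptor that signals through Tyrobp, and Aif1 (IBA1) rose by 4.76 ± 0.86 and 4.72 ± 0.84. Trem2 did not pass without day 3 replicate 1 (3.68, limma adjusted p = 0.0618). Cst3, a secreted cathepsin inhibitor abundant in microglia, rose by 3.88 ± 0.69, from 193 to 302 CPM in blood to 14297, 1019 and 2658 CPM. Tmem119, a marker that distinguishes microglia from macrophages, measured 8.65, 23.6 and 1.76 CPM in blood and 396, 16.8 and 35.3 CPM at day 3, overlapping, and did not pass (2.87 ± 0.89, limma adjusted p = 0.11). The list had 5 calls and a median of 2.90 when day 3 replicate 1 was left out. None of the 18 genes was at 0 in all libraries of a group, and the part of these markers in the other differences was not tested.

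Markers of monocytes and macrophages also rose, in 10 of 20 genes with none lower (median 3.54; 4 called without day 3 replicate 1). They took 0.112% to 0.241% of the reads in blood and 1.46%, 0.610% and 1.08% at day 3. Lyz2, the lysozyme of myeloid cells, measured 167, 6.58 and 23.2 CPM in blood and 7864, 413 and 495 CPM at day 3 (5.22 ± 0.84, limma adjusted p = 2.66e-05). Cd68, a lysosomal membrane protein of macrophages, rose by 4.29 ± 0.75. Plac8, found in monocytes and plasmacytoid cells, measured 108, 60.9 and 223 CPM in blood and 1604, 632 and 2747 CPM at day 3, and differed by 3.62 ± 0.68 with day 3 replicate 3 the highest. Mpeg1, the pore protein of macrophages, rose by 6.42 ± 0.75 from 2.16, 15.9 and 8.80 to 1048, 436 and 721 CPM. Ly6c2, which both inflammatory monocytes and memory CD8 T cells express, differed by 1.96 ± 0.67 with overlapping libraries and did not pass (limma adjusted p = 0.176).

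**Figure D4:**
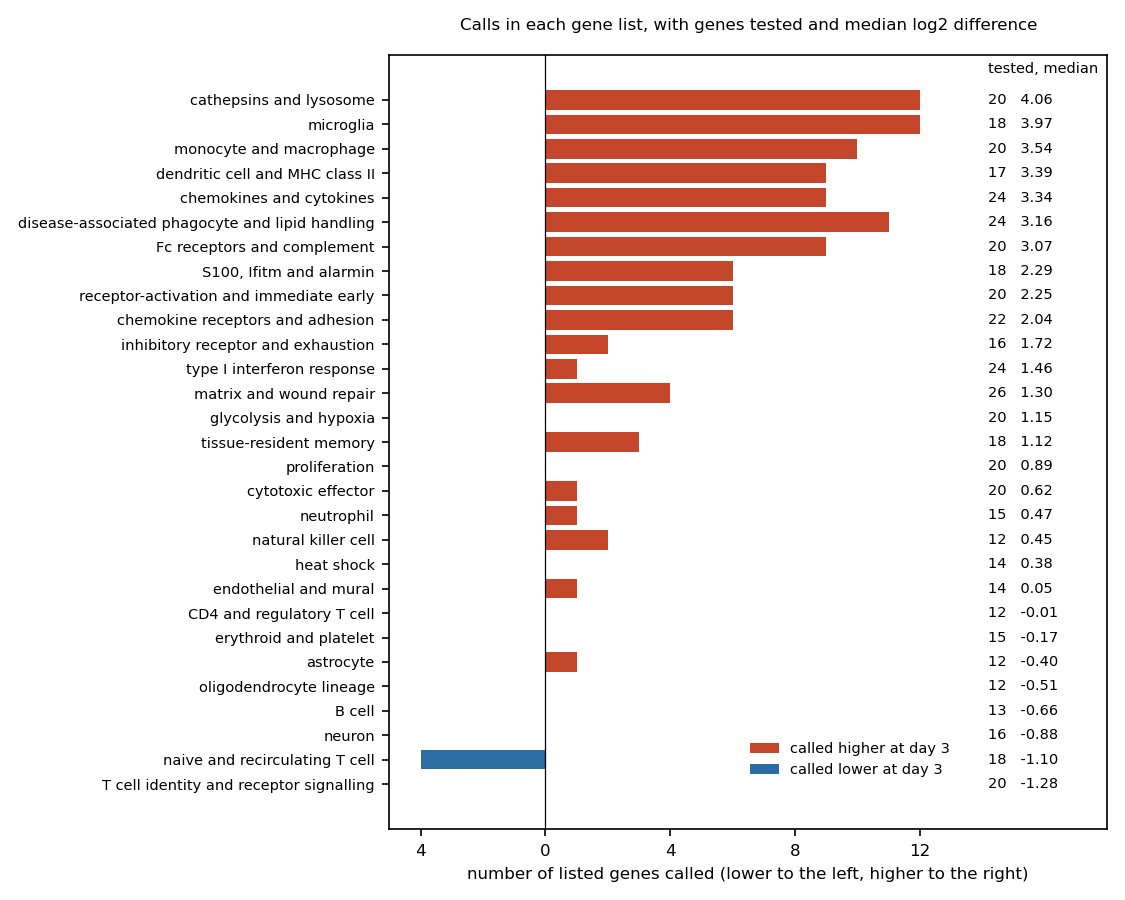
The number of genes called higher (red, to the right) or lower (blue, to the left) at day 3 is shown for each of 29 gene lists, ordered by median log2 difference, with the number tested and the median at the right. The lysosome and microglia lists have 12 calls each, and the naive T cell list, with 4, is the only one of the 29 with genes called lower.

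Genes of secreted chemokines and cytokines also rose. Ccl2, which draws monocytes through the receptor CCR2, measured 3.24, 8.23 and 5.98 CPM in blood and 2729, 76.4 and 273 CPM at day 3 (5.90 ± 0.95, limma adjusted p = 2.66e-05). Cxcl2, which draws neutrophils, measured 9.19, 4.39 and 3.17 CPM against 1990.4, 204 and 84.6 CPM (5.74 ± 1.0, limma adjusted p = 0.000127). The groups did not overlap for these 2 genes, and day 3 replicate 1 lay far above the other replicates. Ccl4, a chemokine that activated CD8 T cells also make, rose by 4.27 ± 0.70 to 3804, 325 and 1607 CPM, and the interferon-induced Cxcl10 by 5.17 ± 1.08. Il1b, which encodes the inflammatory cytokine interleukin 1 beta, rose by 4.50 ± 1.22 (limma adjusted p = 0.0420). Of 24 chemokine and cytokine genes 9 rose and none fell (median 3.34). When day 3 replicate 1 was left out, 3 were called with a median of 2.30, and Cxcl10 and Il1b were not among those that passed (limma adjusted p = 0.209 and 0.516).

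On the receptor side 6 of 22 chemokine receptor and adhesion genes rose and none fell (median 2.04; 2 called without day 3 replicate 1). Cxcr3, the receptor for CXCL10 on effector T cells, measured 2.16, 3.29 and 15.5 CPM in blood and 300.0, 48.2 and 39.6 CPM at day 3 (3.80 ± 0.83, limma adjusted p = 0.00423), and Ccr2 rose by 3.63 ± 0.85. The libraries of the groups did not overlap for Cxcr3. Neither Cxcr3 nor Ccr2 passed without day 3 replicate 1 (2.88 and 2.82, limma adjusted p = 0.2 and 0.251).

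Interferon-induced membrane proteins were among the largest differences, while most genes of the type I interferon response did not pass. Ifitm1, a membrane protein that blocks virus entry, measured 0, 6.58 and 0.704 CPM in blood and 1336, 315 and 222 CPM at day 3 (7.60 ± 1.16, limma adjusted p = 1.07e-05). Ifitm2 and Ifitm3, its neighbours in the family, rose by 5.69 ± 1.06 and 5.60 ± 0.86, and S100a4, a calcium-binding protein of motile cells, by 5.55 ± 0.84. Ifitm2 did not pass without day 3 replicate 1 (4.70, limma adjusted p = 0.131). In naive brain Ifitm1 measured 38.7, 1.29 and 0.497 CPM, so its high values were those of day 3. The S100, Ifitm and alarmin list had 6 of 18 genes higher and none lower (median 2.29; 4 called without day 3 replicate 1). Of 24 type I interferon genes, Bst2 alone rose, by 5.71 ± 0.80 from 1.08, 3.84 and 28.2 to 456, 401 and 227 CPM, and none fell (median 1.46). Bst2 encodes tetherin, which is also a plasmacytoid dendritic cell marker. Ly6a (Sca-1), an interferon-induced surface protein of activated T cells, measured 4.87, 1.10 and 1.76 CPM in blood and 1130.4, 151 and 902 CPM at day 3 (7.37 ± 0.75, limma adjusted p = 6.25e-10). Ly6a stood at 451, 865 and 614 CPM in naive brain.

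Immediate early genes, which cells switch on within minutes of a stimulus, rose in 6 of 20 cases with none lower (median 2.25). Fos, a subunit of the AP-1 transcription factor, measured 158, 26.3 and 66.5 CPM in blood and 5048, 1014 and 822 CPM at day 3 (4.60 ± 0.73, limma adjusted p = 1.82e-05). Fosb measured 8.11, 20.8 and 41.5 CPM against 1675, 298 and 318 CPM (4.73 ± 0.73, limma adjusted p = 1.30e-05). Neither gene's groups overlapped. Egr1 and Atf3, stress and growth response factors, rose by 4.63 ± 0.76 and 4.77 ± 0.79, and Jun, the AP-1 partner of Fos, by 3.82 ± 0.73. The list also had 6 calls without day 3 replicate 1 (median 1.35), and Fos and Fosb differed by 3.78 and 3.92. Fos was also high in naive brain, at 4989, 7851 and 17498 CPM.

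The 19 lower genes included 4 of the genes listed for resting, recirculating T cells. Dapl1 (chromosome 2), a marker of naive CD8 T cells, measured 937, 315 and 606 CPM in blood and 84.6, 7.28 and 26.2 CPM at day 3. Lef1 (chromosome 3), a Wnt pathway transcription factor gene of naive T cells, measured 885, 358 and 546 CPM against 77.7, 20.9 and 48.2 CPM, and Satb1 (chromosome 17), a chromatin organiser of T cells, 629, 484 and 590 against 81.1, 54.6 and 106 CPM. In all 3 genes each day 3 library lay below each blood library. Dapl1 differed by -4.40 ± 0.76, Lef1 by -3.67 ± 0.70 and Satb1 by -2.84 ± 0.68 (limma adjusted p = 0.000121, 0.000559 and 0.0127), and by -5.23, -4.09 and -2.87 without day 3 replicate 1. In naive brain Lef1 measured 198, 241 and 362 CPM and Satb1 235, 137 and 182 CPM, between the ranges of blood and day 3 for both but with Lef1 replicate 3 above the lowest blood value, and Dapl1 325, 96.9 and 118 CPM. Of 18 naive and recirculating T cell genes, Dapl1, Lef1, Satb1 and Txk fell and none rose (median -1.10). Leaving out day 3 replicate 1 gave 6 lower (median -1.68). No member was called higher by edgeR or DESeq2, and 2 were higher at an unadjusted p below 0.05. After median centring 1 of the 18 was called.

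Other lower genes act at the T cell surface and in its signalling. Txk, a kinase downstream of the T cell receptor, measured 478, 250 and 408 CPM in blood and 66.3, 8.64 and 55.7 CPM at day 3 (-3.46 ± 0.73, limma adjusted p = 0.00279). Cd55, which protects cells from complement, measured 377, 141 and 150 CPM against 36.1, 5.91 and 9.10 CPM (-3.87 ± 0.90, limma adjusted p = 0.00879). Sh2d1a, which encodes the adaptor SAP of SLAM receptors, measured 121, 68.0 and 153 CPM against 32.0, 1.36 and 14.5 CPM (-3.36 ± 0.80, limma adjusted p = 0.0120). The day 3 libraries lay below blood in each of these genes, with replicate 2 the lowest. Cd226, a co-stimulatory receptor of T and natural killer cells, fell by 2.99 ± 0.79 on the log2 scale and Emb, which encodes the adhesion protein embigin, by 2.96 ± 0.70. Scml4 (-3.42), Fam189b (-3.34), Pydc4 (-3.11), Mgst2 (-2.77), Dnajc15 (-2.61) and Ms4a4b (-2.48) also fell, with SEs of 0.68 to 0.83 and limma adjusted p from 0.00356 to 0.0478. Sesn3, a stress-response gene under FOXO control, fell by 3.13 ± 0.86 (limma adjusted p = 0.048) and did not pass without day 3 replicate 1 (-2.44, limma adjusted p = 0.308). Not all of these genes were low in brain without stroke. The naive brain libraries lay within or above the blood range for Sh2d1a (245, 149 and 136 CPM), Cd226, Fam189b, Mgst2, Dnajc15 and Ms4a4b (2202, 2542 and 2466 CPM). They lay below every blood library for Txk (156, 119 and 150 CPM), Cd55, Scml4, Pydc4, Emb and Sesn3.

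The general T cell genes passed or not depending on the libraries, the scaling and the model. With all libraries none of 20 T cell identity and receptor signalling genes passed in limma (median -1.28), nor in edgeR or DESeq2, while 8 were lower at an unadjusted p below 0.05. Leaving out that library gave 6 called lower (median -2.0). Quantile normalization and CPM without the authors' scaling each called 7 lower, a library background term 7 and library quality weights 10. Cd3d, which encodes another CD3 chain, measured 1040.4, 430 and 977 CPM in blood and 469, 51.0 and 173 CPM at day 3, so replicate 1 overlapped blood while the others did not. It differed by -2.23 ± 0.69 (limma adjusted p = 0.104), and by -3.0 without replicate 1 (limma adjusted p = 0.0067). Cd27 (-2.54 and -3.77) and Lat (-2.04 and -3.0), which serve co-stimulation and receptor signalling, passed in the same way without replicate 1 (limma adjusted p = 0.0108 and 0.0263). The list took 0.661%, 0.475% and 0.650% of the reads in blood and 0.333%, 0.117% and 0.253% at day 3, without overlap. The memory factor gene Tcf7 and the survival receptor gene Il7r differed by -1.99 ± 0.71 and -2.06 ± 0.67 with all libraries and by -2.77 and -2.53 without replicate 1, where they passed (limma adjusted p = 0.0282 and 0.0254).

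**Figure D5:**
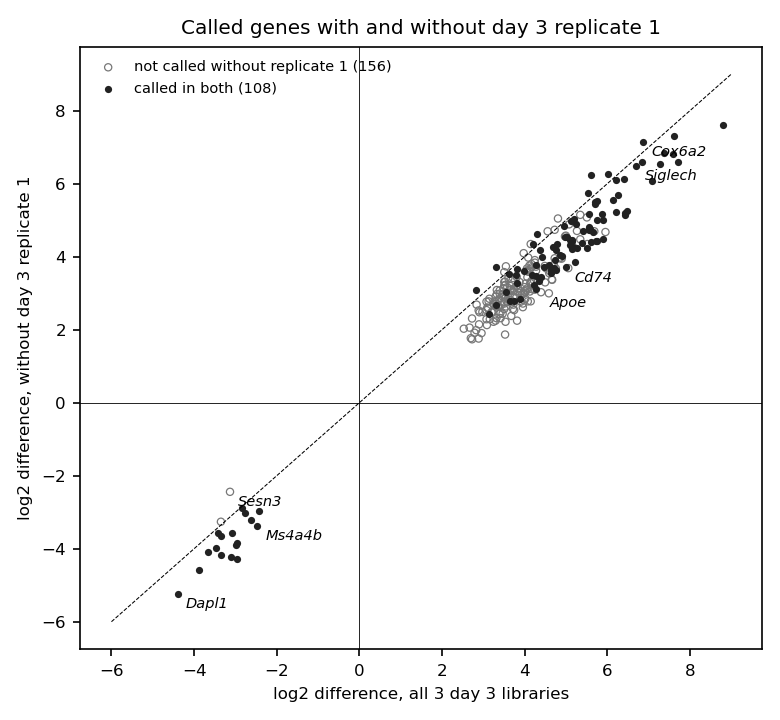
The log2 difference of the 264 called genes without day 3 replicate 1 (vertical axis) is plotted against that with all 3 day 3 libraries (horizontal axis), with the 108 genes still called as filled points, the 156 others as open points and equality as a dashed line. No gene changes sign, and the higher genes lie mostly below the line.

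Genes of effector, resident and inhibited T cells gave 6 calls in all by limma, each of them higher. At an unadjusted p below 0.05 limma had 4, 6 and 8 members of these lists higher and 2, 1 and 1 lower. DESeq2 called 2, 5 and 4 members higher and 1 resident gene lower. In unscaled CPM the cytotoxic list had 3 called higher and 2 lower. Of 20 cytotoxic effector genes 1 rose, the chemokine receptor gene Cx3cr1, which is also a microglia marker (4.02 ± 0.83, limma adjusted p = 0.0019, and 2.85, limma adjusted p = 0.19, without day 3 replicate 1). The list's median was 0.62 with all libraries and -0.09 with the library background as a term. Nkg7, a protein of cytotoxic granules, measured 1748, 852 and 1646 CPM in blood and 2393, 91.0 and 412 CPM at day 3, with overlap, and differed by -1.58 ± 0.71 (limma adjusted p = 0.487). Leaving out day 3 replicate 1, Nkg7 differed by -2.79 (limma adjusted p = 0.00378), the only call in this list in that fit. Of 18 tissue-resident memory genes (median 1.12) 3 rose, against 1.15% of all genes, the transcription factor gene Bhlhe40 (4.46 ± 0.77), Litaf (4.71 ± 0.89) and the G protein regulator gene Rgs2 (2.73 ± 0.72), with limma adjusted p from 0.000104 to 0.0337. Bhlhe40 alone of these passed without replicate 1. Of 16 inhibitory receptor genes (median 1.72) 2 rose, Havcr2 (TIM-3) and Lilrb4, both also expressed by myeloid cells, by 3.42 ± 0.89 and 3.75 ± 0.92, and neither passed without replicate 1 (limma adjusted p = 0.41 and 0.466).

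The other marker lists, neutrophils among them, gave 0 to 2 calls each. Of 15 neutrophil genes 1 rose, the decoy receptor gene Il1r2, at 0 reads in each blood library (limits as for Mzb1) and 154, 30.0 and 22.5 CPM at day 3, and the list took 0.00855% to 0.0197% of the reads in blood and 0.0233% to 0.0326% at day 3. Of 12 natural killer cell genes Tyrobp and Fcgr3 rose, which myeloid cells share, and Fcgr3 did not pass without day 3 replicate 1 (limma adjusted p = 0.0732). None of 13 B cell genes, 12 CD4 and regulatory T cell genes, 12 oligodendrocyte genes or 16 neuron genes passed in limma, edgeR or DESeq2, with 1, 1, 2 and 0 of them at an unadjusted p below 0.05. Among 15 erythroid and platelet genes none passed in limma (1 at an unadjusted p below 0.05 and 1 higher by edgeR and by DESeq2). Their shares were 0.994%, 0.0406% and 0.568% in blood and 0.0273%, 0.230% and 0.346% at day 3. The globin genes Hba-a1 and Hba-a2 had identical counts, as had Hbb-bs and Hbb-b1. Hbb-bt and Hbb-b2 had the same difference (-0.17 ± 1.27). The shares count the reads of both names of such a pair. Apoe was the 1 call among 12 astrocyte genes and Ly6a the 1 call among 14 endothelial and mural genes.

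Lists drawn up for cell division, metabolism and stress gave no calls. None of 20 proliferation genes (median 0.89), 20 glycolysis and hypoxia genes (median 1.15) or 14 heat shock genes (median 0.38) passed in limma or edgeR, DESeq2 called 1 glycolysis gene, and 3, 4 and 4 of them had an unadjusted p below 0.05. Of 26 matrix and wound repair genes 4 rose and none fell (median 1.30). Thbs1, which encodes the matrix protein thrombospondin 1, measured 15.7, 15.4 and 19.0 CPM in blood and 532, 390 and 153 CPM at day 3 (4.17 ± 1.04, limma adjusted p = 0.019). Tgfbi and Timp2, a matrix protein and an inhibitor of matrix proteases, rose by 4.13 ± 0.95 and 3.51 ± 0.81, and Sparc, a matrix-binding protein also made by microglia, by 3.98 ± 0.81. Thbs1 measured at most 15.5 CPM in naive brain and 17.2 CPM at day 30, so its high values were those of day 3. None of the 4 passed without day 3 replicate 1 (limma adjusted p from 0.142 to 0.316).

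Iron storage and redox genes, a set chosen after the values were seen, rose in 8 of 15 cases (median 2.89; 3 called without day 3 replicate 1). Fth1, the heavy chain of ferritin, measured 375, 343 and 334 CPM in blood and 14901, 2178 and 2677 CPM at day 3 (3.66 ± 0.67, limma adjusted p = 0.000272, and 2.78 without day 3 replicate 1, limma adjusted p = 0.00259). Ftl1, the light chain, rose by 2.89 ± 0.69 from 416 to 627 CPM in blood to 18385, 1461 and 2064 CPM. Ferritin was thus among the most abundant transcripts that rose, with tight blood values and no overlap. Hmox1, which breaks down heme, measured 0, 5.49 and 0 CPM in blood and 280, 40.5 and 8.03 CPM at day 3 (4.66 ± 1.06, limma adjusted p = 0.00711), and did not pass without replicate 1 (limma adjusted p = 0.308). Mt1, a metal-binding metallothionein, rose by 5.67 ± 0.87.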

How the data were processed

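RNA of sorted cells was amplified with a SMART-Seq v4 ultra-low input kit, per the labels' protocols, in 12 libraries of 4 groups of 3. FastQC 0.11.2, STAR 2.5.3a, featureCounts of Subread and edgeR, with the mm10 build, are named per the submitters' processing notes. The sources used here give no annotation, strand setting or filters. The deposited table holds the authors' values, whose signal is CPM of a scaled library size, with column sums of 526580.2 to 1614887.8 in the 6 libraries compared. Whole reads were recovered from it in these 6, with 100% of values whole to within 1e-06 reads.

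Genes that reached 1 CPM in 3 or more of the 6 libraries were tested as log2(CPM + 1), a scale that understates the change of low genes, with limma 3.58.1 (R 4.3.3, moderation with a trend), fitted on all 12 libraries. P-values are two-sided, adjusted by Benjamini and Hochberg over 21341 genes (threshold 0.05), and ± is the SE. On simulated data (19679 genes) limma recovered 0% of 100 genes changed by 2 (log2) and 45% of 100 changed by 4, and called 4 unchanged genes. There edgeR called 1 unchanged gene and DESeq2 51. Each gene was simulated on its own, unchanged ones around 1 mean for the 6 libraries. The simulation thus holds no library that stands apart as day 3 replicate 1 does, and cannot give the error rate of these data. Alternatives were pseudocounts of 0.1 and 5, no filter or one at 5 CPM, other scalings, other fits, and leaving out each library. As further alternatives, edgeR 4.0.16 and DESeq2 1.42.0 were run on the recovered reads of the 6 compared libraries alone. No test over gene lists was run.

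The comparison, the genes and the lists were chosen with earlier results of these data known. Of the 29 lists, 12 hold cell type markers, and 37 of 481 listed genes are in more than 1 list. The plasmacytoid and the iron lists came after the values were seen. Named genes are the 15 largest per direction among calls whose higher group averaged 10 CPM or more with no overlap of libraries, leaving out predicted loci, receptor segments and pseudogenes, up to 4 members of each list, and the defining T cell genes. Other members named beside them were chosen after their values were seen. Of 136 named genes, 134 were located in GENCODE vM21, and 5 listed symbols were matched by their older names. At most 3.61% of genes had equal counts in any 2 libraries. No called gene shared its counts with another gene.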

Additional observations from a re-analysis of the deposited data

How the results depend on the processing

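All 264 called genes kept their direction under every alternative run. The number called was 119 with median centring, 617 with quantile normalization, 570 with unscaled CPM, 1164 with library quality weights (whose estimation stopped before reaching its convergence tolerance, as for the value of Cd3e below), 532 by DESeq2 and 159 in the high background libraries alone, and 142 to 326 when 1 library was left out (142 without day 3 replicate 1). The cause was not tested, except that DESeq2, the high background libraries alone and the fits leaving 1 library out use fewer libraries. With the other alternatives it was 204 to 362. The median over all genes was 0.13 with median centring, -0.14 with quantile normalization and 0.23 without day 3 replicate 1. Of 76 named called genes, 48 were called with median centring, all 76 in unscaled CPM and after quantile normalization, and 55 without day 3 replicate 1. The difference of Cd8a reversed to 0.20 by edgeR, 0.14 by DESeq2 and 0.62 without day 3 replicate 2, and ran from -1.01 to 0.62 when 1 library was left out. That of Cd3e reversed to -0.09 with quantile normalization, -0.09 with unscaled CPM, -1.51 with library quality weights, -0.95 with a background term, -1.05 in the high background libraries alone, -0.54 without blood replicate 2 and -1.05 without day 3 replicate 1, and ran from -1.05 to 0.97 when 1 library was left out. With the replicate block 208 genes were called, 196 higher and 12 lower. Deviations of same-numbered libraries correlated at 0.093, 0.155 and -0.021, so the numbers were not taken as pairs. Depth limits the genes near 0 in blood, whose differences depend on the pseudocount.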
